A study of Homo sapiens with 6 samples.

Results

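DPYD, its overlapping gene MIR137HG and 7 genes of pyrimidine metabolism (TYMS, TYMP, UPP1, UMPS, TK1, DCK and CDA) were examined in A2780 cells with and without CDK12. These 9 genes are 9 of the 60483 in the deposited count table and were found by Ensembl identifier. They were selected on the KO against WT difference in these same counts, which was already known, so their values in that contrast are given as a description with no test. RNA-seq had been run on 3 libraries of A2780 WT cells, an ovarian carcinoma line, and 3 libraries of the A2780 CDK12 KO clone. The KO group is 1 clone, obtained with CRISPR/Cas9 directed at exon 1 of CDK12, and both groups share the A2780 background, with no drug named in the labels. A difference between the groups therefore cannot be told apart from a difference between this clone and the uncloned parental line. Nothing in the labels says that the libraries of a group came from separate cultures, so their spread may be technical.

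Pyrimidine nucleotides are made de novo, from small precursors through UMP, or salvaged from nucleosides by kinases and phosphorylases. Thymidylate synthase converts dUMP to dTMP, the step that commits the pathway to DNA synthesis. Dihydropyrimidine dehydrogenase, the product of DPYD, reduces uracil and thymine in the first and rate-limiting step of their breakdown. It also degrades 5-fluorouracil, and inherited loss of its activity makes that drug toxic. CDK12, which is the gene edited in the KO clone, encodes a cyclin-dependent kinase that phosphorylates RNA polymerase II during elongation.

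Total counts ran from 11098400 to 30899045 per library, and 16198 genes passed the filter on low counts and were tested. Levels are given as CPM, counts scaled to a common library total, and a comparison between genes uses CPM per kb of annotated exon. A call needed an adjusted p under 0.05 in edgeR's quasi-likelihood test, and a call past the fold threshold also needed a log2 fold change above 1 or below -1. Among all tested genes, 31.9% were called higher and 32.0% lower in KO. Past the fold threshold these shares were 8.30% and 7.73%. In 32.8% of the tested genes every KO library lay above every WT library, and in 33.5% every KO library lay below. CDK12 itself had 2831, 3759 and 1294 counts in WT and 2432, 2504 and 1818 in KO (log2 fold change -0.23, adjusted p = 8.2e-04 in edgeR), and gene-level counts do not separate edited from unedited transcripts. Of the epithelial and ovarian markers, KRT18, KRT8 and EPCAM were detected, while PAX8 and WT1 had at most 6 counts in a library and MUC16 and CDH1 were at or near 0. Summed CPM of these 7 markers was 68.2 to 73.9 in WT and 114 to 119 in KO, mostly KRT18, which rose from 59.9 ± 1.96 to 103 ± 2.73 CPM (adjusted p = 8.34e-15 in edgeR), and KRT8. EPCAM fell from 3.19 ± 0.794 to 2.17 ± 0.0446 CPM (adjusted p = 0.0119), and PAX8, not tested, had 6, 6 and 2 counts in WT and 3, 1 and 0 in KO. Summed CPM of 8 markers of other cell types was 1.54 to 1.98 in WT and 0.409 to 0.814 in KO, and LUM and DCN, which mark fibroblasts, fell to 0 counts in each KO library. The other 6 were not tested; among them ALB had 5, 3 and 3 counts in WT and 12, 7 and 8 in KO, and MYH11 had 3, 2 and 2 against 4, 3 and 4. The part that these shifts have in the results was not tested. In bulk RNA, fewer cells that express a gene and less RNA of it per cell cannot be told apart.

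DPYD RNA was at or near 0 in the KO clone. The gene lies on the minus strand of chromosome 1 from 97077743 to 97995000 (GRCh38, GENCODE) and has 7131 exon bases in 30 blocks. WT replicates 1, 2 and 3 had 149, 161 and 56 counts, and the KO replicates had 1, 0 and 0. The mean level was 5.28 ± 0.212 CPM in WT (SD, n = 3) and 0.0136 ± 0.0235 in KO. Set against a floor of 3 counts in the smallest KO library, this is at least 31.4-fold lower. The 2 groups did not overlap, and the counts of the WT libraries followed their depth. DPYD was not an abundant transcript in WT, where 32.3% of the tested genes had a level at or below its own.

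MIR137HG, the host transcript of the microRNA miR-137, was at 0 in every KO library. Its counts were 235, 252 and 88 in WT, a mean of 8.30 ± 0.339 CPM (SD, n = 3). Against the same floor its level was at least 49.3-fold lower in KO. It is annotated on the same strand as DPYD, from 97933474 to 98049871, and the spans of the genes share 61527 bases, of which 494 are exonic in both. Per kb of exon the WT levels of these neighbours were close, 0.741 ± 0.0297 CPM for DPYD and 0.864 ± 0.0353 for MIR137HG.

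The miRNA itself was not measured by this library type, and no row of the table carries the GENCODE 44 identifier of the miR-137 gene; earlier identifiers were not searched. Its mature forms are shown because MIR137HG carries them. RefSeq (GRCh38.p14) places miR-137-3p at chr1:98046091-98046113 and miR-137-5p at chr1:98046127-98046149, both on the minus strand. Capitals mark the seed, bases 2 to 8, and each seed occurs in 1 mature entry of the RefSeq miRNA table.
miR-137-3p: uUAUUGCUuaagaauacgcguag
miR-137-5p: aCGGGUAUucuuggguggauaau

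The 250 bases upstream of the RefSeq starts of DPYD and MIR137HG are printed because both transcripts were at or near 0 in KO and begin 129 kb apart. The RefSeq start of DPYD lies inside the GENCODE span, beyond the 3′ end of MIR137HG, so a transcript that starts there does not overlap MIR137HG. The DPYD sequence is chr1:97921035-97921284 and that of MIR137HG chr1:98049694-98049943, both minus strand of GRCh38.p14. Capitals mark matches to the GC box GGGCGG or the CCAAT box CCAAT, on either strand.
DPYD: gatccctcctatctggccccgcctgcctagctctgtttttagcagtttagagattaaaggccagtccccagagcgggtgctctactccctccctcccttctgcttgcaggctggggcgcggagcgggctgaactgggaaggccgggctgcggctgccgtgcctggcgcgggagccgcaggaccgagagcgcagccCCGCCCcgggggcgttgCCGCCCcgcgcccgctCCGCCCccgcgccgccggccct
MIR137HG: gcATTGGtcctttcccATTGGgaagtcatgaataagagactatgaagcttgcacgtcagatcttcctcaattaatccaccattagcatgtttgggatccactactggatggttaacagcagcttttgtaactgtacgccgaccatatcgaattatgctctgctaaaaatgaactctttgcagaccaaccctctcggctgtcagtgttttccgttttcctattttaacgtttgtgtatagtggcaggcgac

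These starts differ in base composition. The 300-base window of DPYD, which adds 50 bases after the start, held 29 CpG at 70.3% GC, with 3 GC boxes and no CCAAT box. The MIR137HG window held 9 CpG at 42.0% GC, with 2 CCAAT boxes and no GC box. The median over 35114 such windows was 14 CpG and 58.7% GC. A GC box occurred in 45.0% of the windows, a CCAAT box in 34.6% and a TATA box (TATAAA) in 11.5%. The 9 genes all had a window, and their motifs were mixed. An E2F-type match (TTTCCCGC or TTTGGCGC, either strand), present in 2.3% of all windows, was found once each in those of TYMS, DCK and CDA. A TATA box was found only in the window of TK1. A match describes the letters and is not evidence that a factor binds.

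Among their neighbours on chromosome 1, 2 lncRNAs were also at 0 in every KO library. ENSG00000259946, a lncRNA on the same strand within the shared span (97967005 to 97968814), had 47, 28 and 19 counts in WT and 0 in each KO library. It was at least 8.62-fold lower. LINC01776, upstream of both genes (98210747 to 98272658), had 37, 31 and 13 counts in WT and none in KO, at least 7.03-fold lower. Both lncRNAs passed the filter on low counts only through the WT libraries. Each therefore had to be lower, and no p-value is given for them. SEC63P1, a processed pseudogene inside DPYD on the other strand, had 9, 7 and 6 counts in WT and 13, 6 and 11 in KO, with no call (adjusted p = 0.398 in edgeR). Its reads may belong to other copies of the same sequence. The antisense and intronic genes DPYD-AS1, DPYD-AS2 and DPYD-IT1 were at 0 in all 6 libraries.

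The nearest tested protein-coding genes on either side were still expressed in KO. PTBP2, an RNA-binding protein gene that ends at 96823738, had 39.1 ± 2.42 CPM in WT and 35.9 ± 0.365 in KO (SD, n = 3), with no call (adjusted p = 0.0642 in edgeR). SNX7, a sorting nexin gene that starts at 98661701 on the other side, fell from 38.7 ± 0.980 to 25.9 ± 1.61 CPM (adjusted p = 2.34e-09). Between them lie 1838 kb and 13 genes of the table. Of these, 5 exceeded 3 counts in every WT library, and 4 of the 5 had at most 3 counts in every KO library, the exception being SEC63P1. The 4 include DPYD and MIR137HG, which were selected on this difference, beside ENSG00000259946 and LINC01776. The share of all genes that meet the same rule was not computed. RNA counts do not show whether the DNA of the interval was altered, which was not tested.

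Over a wider window, within 5 Mb of DPYD and without DPYD and MIR137HG, 54 of 175 listed genes were tested. Of these 5 were called higher, 27 lower (50.0%) and 22 neither, with a median log2 fold change of -0.23 beside 0.00 over all tested genes. Past the fold threshold none was higher and 8 were lower (14.8%, beside 7.73% of all tested genes). The highest log2 fold change in the window was 0.66, so no gene there exceeded the fold threshold upwards at any p in edgeR, and voom and DESeq2 also gave 0. The 8 include ENSG00000259946 and LINC01776. Those lncRNAs, OLFM3, COL11A1, PALMD and RPSAP19 passed the filter on low counts only through the WT libraries, so each had to be lower. With at least 10 counts required in every library, 2 genes of the window were lower past the threshold. OLFM3, which encodes a secreted olfactomedin, went from 7846, 8806 and 3141 counts in WT to 1, 0 and 0 in KO, at least 1710-fold lower. COL11A1, a fibrillar collagen chain, went from 2936, 3400 and 1268 to 2, 0 and 0, at least 662-fold lower. PALMD had 86, 76 and 21 counts in WT and 1, 1 and 0 in KO. All 3 lie upstream of MIR137HG, as do RPSAP19 and FRRS1, and tested genes inside the fold threshold lie among them. FNBP1L, beyond the 3′ end of DPYD, fell from 38.4 ± 2.18 to 13.4 ± 1.29 CPM. FRRS1 fell from 311, 326 and 120 counts to 109, 129 and 104, and the pseudogene RPSAP19 fell from 0.749 ± 0.0997 to 0.148 ± 0.0314 CPM. The window sets the count: within 2 Mb, 4 of 15 tested genes were lower past the threshold, and within 10 Mb, 11 of 82 were lower and 4 higher.

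**Figure D1:**
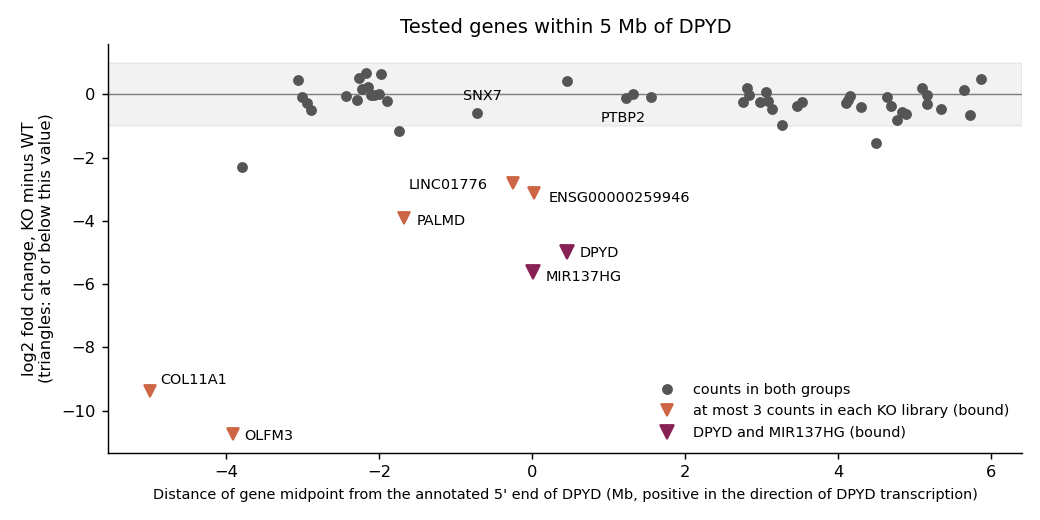
Log2 fold change, KO minus WT, of tested genes within 5 Mb of DPYD against the distance of the gene's midpoint from the annotated 5′ end of DPYD in Mb; the grey band spans -1 to 1. Triangles are genes with at most 3 counts in each KO library, drawn at the bound set by the floor, and they lie beside genes inside the band.

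The remaining genes with enough counts to compare differed by at most about 1 on the log2 scale, some higher and some lower in KO. UMPS encodes the bifunctional enzyme that completes UMP synthesis. It had 1310, 1528 and 563 counts in WT and 1611, 1841 and 1097 in KO, or 49.8 ± 1.76 and 65.2 ± 3.39 CPM (SD, n = 3). Its KO level was 1.31 times that of WT (log2 fold change 0.39, SE 0.0560), and every KO library lay above every WT library.

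TYMS, which encodes thymidylate synthase, the target of 5-fluorouracil, was the most abundant of the 9 per kb of exon. Its counts were 9846, 10537 and 3985 in WT and 6119, 6775 and 4421 in KO. The level was 357 ± 4.28 CPM in WT and 250 ± 1.74 in KO (SD, n = 3), or 70.0% of WT (log2 fold change -0.51, SE 0.0452). The groups were far apart relative to the spread within each. In WT, 97.8% of the tested genes had a level at or below that of TYMS.

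TYMS overlaps 2 genes on the other strand. ENOSF1 shares 967 exon bases with it and rose from 63.1 ± 2.40 to 79.4 ± 3.03 CPM (adjusted p = 2.4e-06 in edgeR). TYMSOS shares 193 exon bases and rose from 4.01 ± 0.182 to 5.72 ± 0.253 CPM (adjusted p = 7.01e-04). Both moved opposite to TYMS. The library kit keeps strand, but the strand setting of the counting is not given in the sources used here, so reads of the shared bases are uncertain.

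The nucleoside kinases TK1 and DCK went opposite ways. TK1, the cytosolic thymidine kinase, had 3599, 4067 and 1438 counts in WT and 3834, 4382 and 2728 in KO, or 132 ± 3.21 and 157 ± 4.89 CPM (SD, n = 3). The KO level was 1.19 times that of WT (log2 fold change 0.25, SE 0.0479), with all KO libraries above all WT libraries. DCK, the deoxycytidine kinase that activates cytarabine and gemcitabine, had 1516, 1553 and 590 counts in WT and 1018, 1044 and 748 in KO. Its level was 53.4 ± 1.77 CPM in WT and 40.7 ± 1.73 in KO, or 76.3% of WT (log2 fold change -0.39, SE 0.0574), again with no overlap. MOB1B, on the same strand, shares 199 exon bases with DCK and was at 104 ± 2.35 CPM in WT and 106 ± 7.91 in KO (adjusted p = 0.597 in edgeR).

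Of the phosphorylases, UPP1 was near the middle of the tested genes in level and TYMP was low. UPP1, uridine phosphorylase, had 578, 561 and 225 counts in WT and 461, 529 and 330 in KO. At 20.0 ± 1.20 and 19.0 ± 0.587 CPM (SD, n = 3) the groups overlapped (log2 fold change -0.07, SE 0.0742). TYMP, thymidine phosphorylase, had 9, 6 and 3 counts in WT and 17, 13 and 7 in KO. The level was 0.266 ± 0.0642 CPM in WT and 0.523 ± 0.153 in KO (log2 fold change 1.00, SE 0.405). TYMP passed the filter on low counts only through the KO libraries, as DPYD and MIR137HG did only through those of WT, so each had to differ. CDA, the cytidine deaminase, had 0, 5 and 1 counts in WT and 0 in each KO library and was not tested. The other 8 genes were tested.

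Per kb of exon the 9 genes covered a wide range. In WT the order ran from TYMS (147 CPM per kb) through TK1 (71.6), DCK (17.2), UMPS (6.63) and UPP1 (4.37) to MIR137HG (0.864) and DPYD (0.741), with CDA (0.104) and TYMP (0.0740) lowest. Each step of this order exceeded the SDs of its neighbours, except that between CDA and TYMP. In KO the order of the first 5 was unchanged, at 103, 85.3, 13.1, 8.68 and 4.15 CPM per kb, and DPYD and MIR137HG dropped below TYMP (0.145).

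Of the pyrimidine genes outside the 9, a list of 55 written by role, 43 were tested. Among these 12 were called higher (27.9%) and 21 lower (48.8%), beside 31.9% and 32.0% of all tested genes. All KO libraries lay above all WT libraries for 11 and below for 19. The median log2 fold change was -0.11, beside 0.00 over all tested genes. Past the fold threshold CMPK2 was higher, and CTPS2, NME4, NT5C2 and SLC29A4 were lower. These 5 are 11.6% of the tested list, which is below the 16.0% of all tested genes past that threshold. The list was compiled with results of these libraries known.

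In de novo synthesis 3 of 4 genes outside the 9 fell. CTPS2, 1 of 2 CTP synthase genes, had 40.6, 42.5 and 39.3 CPM in WT and 9.52, 9.18 and 7.08 in KO. This is a fall to 21.1% of WT (log2 fold change -2.23, SE 0.0817, adjusted p = 1.11e-21 in edgeR), the largest decrease among the tested genes of the list outside the 9. Its paralog CTPS1 went from 126 ± 8.81 to 113 ± 7.53 CPM, called lower although its groups overlapped. CAD, the multifunctional enzyme of the first 3 steps, was the most abundant of the role per kb and fell from 376 ± 26.6 to 324 ± 5.19 CPM (adjusted p = 3.64e-04). DHODH, the mitochondrial dehydrogenase between CAD and UMPS, was at 24.8 ± 1.96 and 24.9 ± 1.93 CPM, with no call.

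The genes of deoxynucleotide and dTMP synthesis were split, with 5 higher and 5 lower of 11 tested outside the 9. RRM2, the S phase subunit of ribonucleotide reductase, fell from 614 ± 28.6 to 467 ± 4.08 CPM (log2 fold change -0.40, adjusted p = 8.72e-09). Its paralog RRM2B, a p53 target, rose from 57.6 ± 0.721 to 97.7 ± 5.90 (log2 fold change 0.76, adjusted p = 5.87e-14). The dUTPase gene DUT and the thymidylate kinase gene DTYMK fell with log2 fold changes of -0.39 and -0.34. The folate enzymes did not move as a block. SHMT2, the mitochondrial serine hydroxymethyltransferase, rose from 173, 172 and 153 CPM in WT to 268, 267 and 282 in KO, and MTHFD1 rose from 236 ± 15.3 to 380 ± 5.27, whereas cytosolic SHMT1 fell from 72.0 ± 6.66 to 58.9 ± 1.04. SAMHD1, which degrades dNTPs, rose with a log2 fold change of 0.38.

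In nucleoside salvage, TK2, the mitochondrial thymidine kinase, rose from 23.2 ± 0.841 to 38.3 ± 0.406 CPM (log2 fold change 0.73, adjusted p = 8.34e-12). UCK2, a uridine-cytidine kinase and the most abundant of the role outside the 9 per kb, fell from 239 ± 5.43 to 221 ± 4.90 CPM (adjusted p = 0.0298). In all, 2 of the 5 tested genes rose and 1 fell.

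Among the nucleotide kinases 2 of 8 rose and 4 fell. CMPK2, the mitochondrial UMP-CMP kinase that is also an interferon-stimulated gene, had 326, 330 and 124 counts in WT and 721, 696 and 467 in KO, a rise of 2.39-fold in CPM (log2 fold change 1.25, SE 0.0785, adjusted p = 2.35e-15). RSAD2 overlaps it at its 5′ end on the other strand and rose from 8.66 ± 0.642 to 25.0 ± 0.790 CPM. As the strand setting is unknown, reads of the bases that CMPK2 and RSAD2 share are uncertain. NME4, a mitochondrial nucleoside diphosphate kinase, fell from 193 ± 3.88 to 87.3 ± 3.47 CPM (log2 fold change -1.15, SE 0.0492, adjusted p = 8.68e-20). DECR2, on the same strand and overlapping NME4, was at 23.1 ± 1.27 and 23.6 ± 2.16 CPM with no call.

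Of 7 tested nucleotidases 3 fell and 4 had no call, and 5 more were not tested. NT5C2, a cytosolic nucleotidase, had 181, 191 and 176 CPM in WT and 75.7, 70.8 and 70.2 in KO (log2 fold change -1.34, SE 0.0513, adjusted p = 3.73e-21). INA, a neurofilament gene that overlaps the 5′ end of NT5C2 on the other strand, had 128, 153 and 53 counts in WT and 0 in each KO library, and reads of the bases it shares with NT5C2 are uncertain in the same way. DCTPP1, a pyrophosphatase for dCTP and its analogs, was the most abundant of the role per kb and fell from 94.6 ± 5.84 to 70.8 ± 5.97 CPM.

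In the breakdown pathway that DPYD opens, the later enzymes were at the edge of detection in both groups. DPYS, the dihydropyrimidinase, had 0, 1 and 0 counts in WT and 4, 6 and 5 in KO, and UPB1, which completes the route to beta-alanine, had at most 3 counts in a library. AGXT2 was at 0 throughout. ABAT, a transaminase that acts on beta-alanine and on GABA, was the only tested gene of the role besides DPYD and rose from 10.1 ± 0.507 to 16.4 ± 1.33 CPM (log2 fold change 0.71, adjusted p = 2e-08).

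Nucleoside transporters fell in most cases, with 5 of 7 tested genes lower and 2 higher. SLC29A1, the equilibrative transporter ENT1 that takes up many nucleoside drugs, fell from 77.7 ± 4.76 to 40.3 ± 2.52 CPM, 51.9% of WT (log2 fold change -0.95, SE 0.0587, adjusted p = 1.74e-15), which is inside the fold threshold. SLC29A2, the most abundant of the role per kb, fell from 74.2 ± 2.77 to 50.6 ± 0.424 CPM. SLC29A4 fell from 14.3 ± 0.678 to 6.03 ± 0.495 CPM (log2 fold change -1.27, SE 0.0980, adjusted p = 5.28e-13). TNRC18, which overlaps its 3′ end on the other strand, rose from 13.5 ± 0.511 to 28.7 ± 1.84 CPM, with the same uncertainty for shared bases. The lysosomal SLC29A3 and the mitochondrial pyrimidine carrier SLC25A36 rose, each with a log2 fold change of 0.33. The concentrative transporters SLC28A1, SLC28A2 and SLC28A3 were at or near 0 and were not tested.

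**Figure D2:**
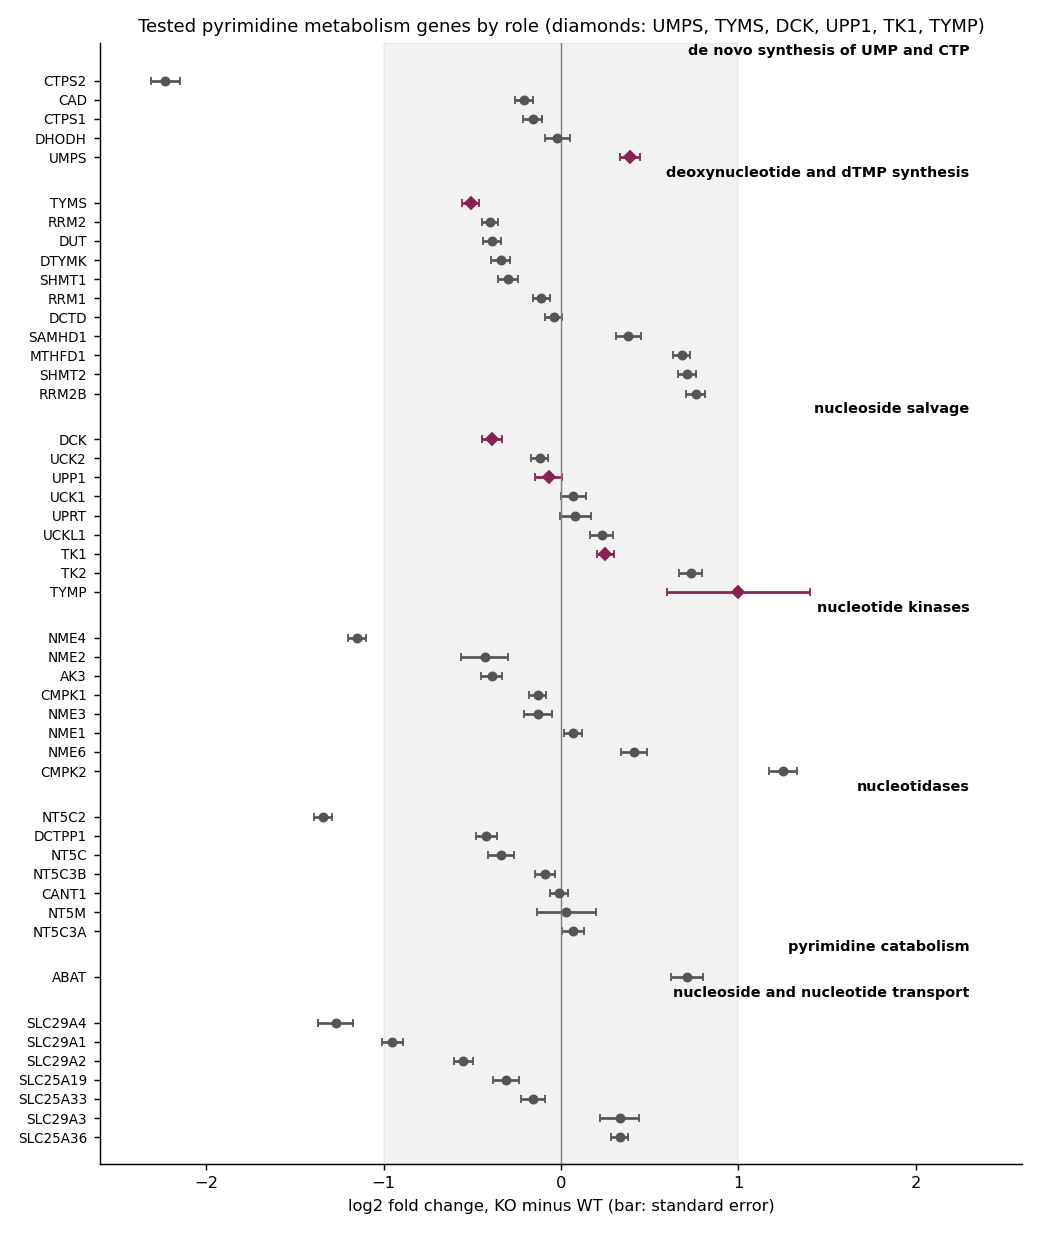
Log2 fold change, KO minus WT, of the tested pyrimidine genes by role, with bars for the standard error of the fit; diamonds mark the 6 described genes with counts in both groups, DPYD and 1 other listed gene are not drawn, and the grey band spans -1 to 1. CTPS2, NT5C2, SLC29A4 and NME4 lie left of the band and CMPK2 right of it.

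Levels were also summed per kb over the genes of each role. Genes of dNTP synthesis, TYMS included, summed to 459 ± 3.76 CPM per kb in WT and 417 ± 2.96 in KO (SD, n = 3), 90.8% of WT. Salvage genes summed to 154 ± 2.00 and 165 ± 3.70, or 107% of WT. Of the selected genes in these sums, TYMS went from 147 to 103 CPM per kb. In salvage, TK1 went from 71.6 to 85.3 and DCK from 17.2 to 13.1. Sums without the selected genes were not computed, so no shift of a role as a whole is read from the sums. De novo genes were at 84.8% of WT, nucleotide kinases at 80.6%, nucleotidases at 78.3% and transporters at 77.9%. Breakdown genes were at 98.2% (1.79 ± 0.0156 against 1.76 ± 0.141 CPM per kb), since the rise of ABAT in the sum was about as large as the loss of DPYD.

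Pairs of related genes were also set against each other within each library, which removes the library's scale. The ratio of CTPS2 to CTPS1 was 0.754, 0.689 and 0.658 in WT and 0.183, 0.165 and 0.145 in KO, so it was 4.26 times as high in WT. RRM2B to RRM2 went from 0.159 ± 0.00913 to 0.355 ± 0.0216 (SD, n = 3), a 2.23-fold higher ratio in KO. The ratio of SHMT2 to SHMT1 was 3.53 ± 0.139 in WT and 7.06 ± 0.356 in KO. The ratio of TK2 to TK1 went from 0.0314 ± 0.00186 to 0.0434 ± 0.00151. UCK2 to UCK1 and SLC29A1 to SLC29A2 were lower in KO, at 0.875 and 0.758 of the WT ratio. In all 6 pairs the libraries of the groups did not overlap. Among single tested genes every KO library lay above every WT library in 32.8% and below in 33.5%. No such share was computed for other pairs, and several genes of these pairs were named after their values were seen. These ratios are descriptions and were given no test.

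**Figure D3:**
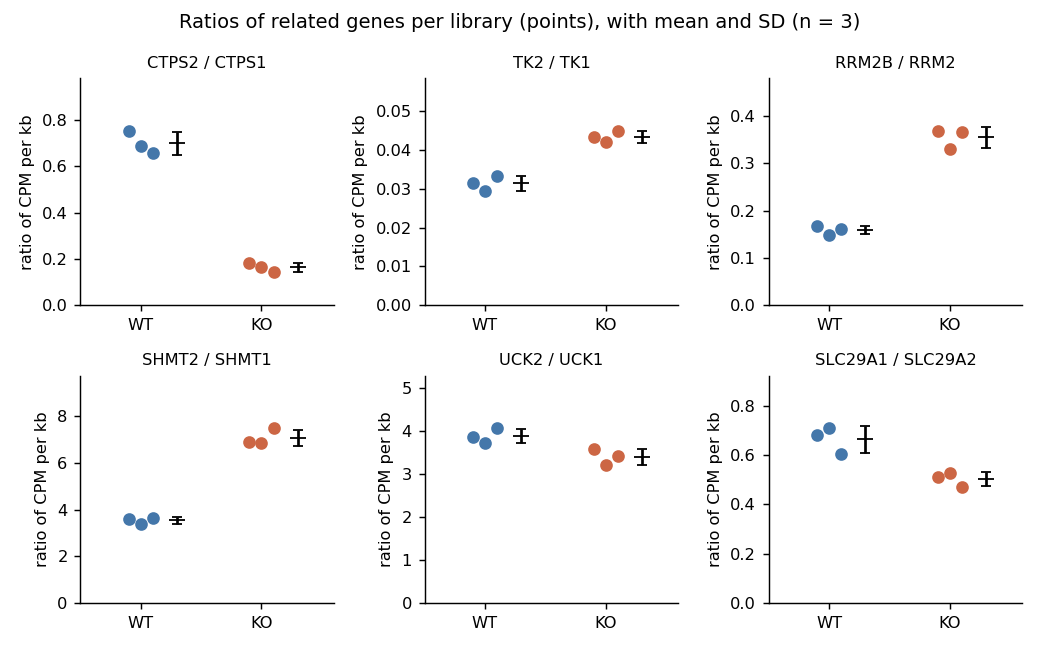
Ratios of CPM per kb for 6 pairs of related genes in each library (points; WT blue, KO orange), with the mean and SD of 3 libraries. The CTPS2 to CTPS1 ratio is lower in KO, the RRM2B to RRM2, SHMT2 to SHMT1 and TK2 to TK1 ratios are higher, and no pair overlaps between groups.

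TYMS, TK1 and RRM2 are expressed mainly in S phase, so 16 other S phase genes were read beside them. Of these 12 fell (75.0%, beside 32.0% of all tested genes) and 2 rose (12.5%, beside 31.9%). The 2 were MCM2 and CDT1, with log2 fold changes of 0.22 and 0.43 (edgeR). The median was -0.24, and summed CPM was 2790 to 2930 in WT and 2490 to 2560 in KO. CCNE2, 1 of the 12, was the only one past the fold threshold, with 77, 113 and 43 counts in WT and 16, 16 and 6 in KO. It passed the filter on low counts only through the WT libraries, so no p-value is given for it. The decreases of TYMS, DCK and RRM2 and the increase of TK1 lie within the range of these genes. By flow cytometry, the paper reports similar cell cycle distributions in parental and KO cells and a higher DNA content in KO. The part of cell cycle phase and of DNA content in these RNA levels was not tested.

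The genes whose levels over the 6 libraries were most like those of DPYD, by root mean square difference in log2 CPM, were PXDC1 (0.0422), PCDH7 (0.160), MYPN (0.178), ADGRG6 (0.192) and INA (0.246). PXDC1 had 139, 159 and 55 counts in WT and 1, 0 and 0 in KO. None of the 5 lies on chromosome 1; they lie on chromosomes 6, 4, 10, 6 and 10. DPYD was 1 of 41 tested genes with at least 5 CPM in every WT library and at most 1 count in every KO library.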

How the data were processed

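For A2780 WT and A2780 CDK12 KO, 3 libraries each were sequenced (stranded, single-end, 75 bases), and the authors deposited raw counts per Ensembl gene, made with FastQC, STAR on GRCh38 and HTSeq-Count. Versions, annotation release, strand setting and treatment of multiply mapping reads are not given in the sources used here. Groups come from the genotype in the labels, which give no batch and no culture. The 9 genes, the gene lists and the tests were chosen with earlier results of these data known.

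Identifiers, without version, were matched to GENCODE 44, which holds 56321 of the 60483 genes (93.1%). Positions and exon lengths come from there, and promoter and miRNA sequences from RefSeq (GRCh38.p14). In R 4.3.3, edgeR 4.0.16 was used with TMM, filterByExpr (minimum count 10, minimum total 15) and the two-sided quasi-likelihood test with Benjamini-Hochberg adjustment over 16198 genes. The fold threshold follows the study's methods. CPM use TMM-scaled totals. Where no library of a group exceeded 3 counts, the fold is a lower bound, taken against 3 counts in the group's smallest library (0.169 CPM for KO). Reads carry no molecular identifiers, so floors cover counting error only. Named genes are the 9; listed genes past both thresholds and the most abundant of each role per kb; genes overlapping the 9 or flanking DPYD; genes within 5 Mb of DPYD past both thresholds; the 5 most like DPYD; CDK12; and S phase genes past the thresholds. Further genes, among them DUT, DTYMK, SAMHD1, RRM2B, SHMT1, SHMT2, MTHFD1, TK2, SLC29A1, SLC29A3, SLC25A36, DPYS, UPB1 and the genes overlapping listed genes, were named after their values were seen.

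Alternatives were voom with limma 3.58.1, DESeq2 1.42.0, other normalizations and filters, omission of each library, thinning to the smallest total and other windows around DPYD. On simulated counts with 200 changed genes, edgeR recovered 200 with 8 false calls among 15492 genes, voom 200 with 8, and DESeq2 199 with 7 among 16191. Tables and figures used Python 3.11.15, numpy 2.4.6, pandas 2.3.3 and matplotlib 3.10.9. For 1 listed gene, which is included in the counts and sums of its list, no values are reported here.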

Additional observations from a re-analysis of the deposited data

Results flagged for a closer look

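DPYS, which encodes the enzyme after dihydropyrimidine dehydrogenase in uracil and thymine breakdown, had too few counts to be tested, yet every KO library lay above every WT library. It had 0, 1 and 0 counts in WT and 4, 6 and 5 in KO, a mean of 0.0111 CPM in WT and 0.222 in KO. A floor of 3 counts in the smallest WT library is 0.27 CPM. The KO mean lies below that floor, so no bound on the fold is given. Groups of 3 libraries are too small to test for single outlying libraries.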

How the results depend on the processing

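Of the counts of calls, 8 values moved. Not among these 8, listed genes outside the 9 called lower fell to 16 without KO replicate 3 and after thinning, against 21. Those called higher ran from 10 to 12, against 12. Past the fold threshold, the list outside the 9 genes had 2 higher genes with DESeq2 and 2 with no filter, against 1, the added gene being DPYS, which the main filter removes. Within 5 Mb of DPYD, 1 gene was higher after thinning and 4 in a 10 Mb window, against 0, while 2 were lower with at least 10 counts in every library and 4 in a 2 Mb window, against 8. Requiring 10 counts in every library removes genes near 0 in KO, and over all genes it left 568 higher and 684 lower, against 1345 and 1252. Omitting a library moved none of these counts by over 1.5 times. The log2 of the least fold for DPYD was 5.43 without KO replicate 3 and 4.15 after thinning, and for MIR137HG 6.09 and 4.93, because the smallest KO library sets the floor. TYMS stayed between -0.53 and -0.49, UMPS between 0.36 and 0.48 and TYMP between 0.75 and 1.25. CTPS2, NT5C2, NME4, SLC29A4 and CMPK2 stayed past the fold threshold under all 13 alternatives. No direction reversed. No paired analysis was possible because the labels number the libraries 1 to 6 and the groups share no number. Depth limits TYMP, CDA and DPYS.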
